A study of Mus musculus with 8 samples.

Results

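The replication-dependent histone genes supply the histones that package newly copied DNA. They were taken as the mouse protein-coding genes with the symbols H1f1 to H1f5 or with a symbol made of H2ac, H2bc, H3c or H4c and a number, which gave 62 of 21900 protein-coding genes: 5 H1, 17 H2A, 16 H2B, 12 H3 and 12 H4 genes. Each was described by the H2A.Z peaks and differential regions within 1 kb of either end of the gene, called boundary peaks here. The symbols define the members, but the group was selected on these same lists, in which its peaks and differential regions had been seen, so all values below are descriptions. The data are chromatin immunoprecipitation sequencing (ChIP-seq) of H2A.Z, a variant of histone H2A, in testis cells of mice at postnatal day 14. Control testes were compared with Znhit1-CKO testes, in which Znhit1 is conditionally knocked out (the protocol also writes Znhit1-sKO), with 2 libraries of H2A.Z immunoprecipitate and 2 of input per genotype. The sources used here do not give the strain, the Cre driver or how many animals made up a library. The deposited files hold 1 control peak list (48752 peaks), 1 Znhit1-CKO peak list (31156 peaks) and 1 list of 24367 differential regions that the authors called between the genotypes, all as bare intervals. There is thus no height per peak, no value per replicate and no sign for a differential region. No comparison below has a replicate error, and depth per library is unknown.

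Replication-dependent histone genes are short, mostly without introns, and lie in clusters. They are transcribed in S phase at nuclear bodies organised by the protein NPAT, and their mRNAs end in a stem-loop bound by SLBP instead of a poly(A) tail. ZNHIT1 is a subunit of the SRCAP complex, which exchanges H2A for H2A.Z in nucleosomes, most of all next to transcription starts. The H2A.Z genes themselves lie outside these clusters and are not replication-dependent. In the testis, H2ac1 and H2bc1 encode TH2A and TH2B, germ cell versions of H2A and H2B that replace part of the usual histones in spermatocytes.

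The members lie in 3 clusters, a cluster being a run of members with gaps of at most 500 kb. On chromosome 13, 22 members lie from H2bc13 to H2bc11 (21715711 to 22043658, 328 kb) and 30 from H4c8 to H2ac1 (23531044 to 23934913, 404 kb). On chromosome 3, 10 members lie from H2ac21 to H2bc18 (96219885 to 96270192, 50.3 kb). Coordinates are those of mm10 (GRCm38), counted from 1. Genes of H2A and H2B often stand back to back and share the DNA between their starts, and 9 such pairs had both starts in the RefSeq promoter table. The promoters of 57 of the 62 members were in that table (GRCm38.p6).

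The stretches between the starts of H2A and H2B pairs are printed because 1 control peak lies over each whole stretch in the first 4 and over part of the last, and because these pairs span the outcomes below. The first kept its peak, the second kept it with a differential region, the next 2 lost it and the last is the testis pair. Each is written 5′ to 3′ towards the gene named, with matches to CCAAT, to TATAA and to ATTTGCAT (the octamer element of H2B promoters), on either strand, in capitals. They are H2bc12 (chr13:22035644-22035820, plus strand), H2bc11 (chr13:22042950-22043197, plus strand), H2bc7 (chr13:23574208-23574380, minus strand), H2bc22 (chr13:21787249-21787487, plus strand) and H2bc1 (chr13:23934157-23934406, minus strand). For H2bc1 only the 250 bases before its start are printed, of the 280 bp between the starts of the pair.
H2bc12: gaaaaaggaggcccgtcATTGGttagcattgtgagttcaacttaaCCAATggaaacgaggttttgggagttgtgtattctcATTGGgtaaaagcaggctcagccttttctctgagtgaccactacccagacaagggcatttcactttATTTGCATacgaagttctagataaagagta
H2bc11: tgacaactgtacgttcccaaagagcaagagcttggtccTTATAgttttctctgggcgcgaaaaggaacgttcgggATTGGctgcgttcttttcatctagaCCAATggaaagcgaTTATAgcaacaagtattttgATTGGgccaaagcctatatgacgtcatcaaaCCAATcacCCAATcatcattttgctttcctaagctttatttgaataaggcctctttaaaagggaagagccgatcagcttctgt
H2bc7: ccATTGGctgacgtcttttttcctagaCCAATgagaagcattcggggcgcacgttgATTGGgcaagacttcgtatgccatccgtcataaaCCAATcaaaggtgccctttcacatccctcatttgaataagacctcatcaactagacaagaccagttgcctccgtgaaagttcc
H2bc22: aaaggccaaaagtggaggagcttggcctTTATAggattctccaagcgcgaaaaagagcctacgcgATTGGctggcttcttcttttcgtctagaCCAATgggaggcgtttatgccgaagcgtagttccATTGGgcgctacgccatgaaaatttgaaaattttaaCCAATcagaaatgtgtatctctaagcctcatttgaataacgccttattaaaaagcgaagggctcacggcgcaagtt
H2bc1: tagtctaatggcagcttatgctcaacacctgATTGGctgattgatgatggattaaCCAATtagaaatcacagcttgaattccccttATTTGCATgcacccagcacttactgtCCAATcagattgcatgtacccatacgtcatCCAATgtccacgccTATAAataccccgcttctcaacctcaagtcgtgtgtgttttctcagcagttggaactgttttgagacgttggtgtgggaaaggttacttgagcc
These 3 motifs were common in the 250 bases before the starts. CCAAT was found in 48 of 58 member promoters (82.8%) and in 33.8% of the 32851 promoters of the table, TATAA in 36 (62.1%) and 22.8%, and ATTTGCAT in 13 (22.4%) and 1.6%. CCAAT was in all 17 H2A and all 15 H2B promoters but in 3 of 11 H4 promoters, and ATTTGCAT was in 6 H2A and 7 H2B promoters and in none of the 5 H1, 10 H3 and 11 H4 promoters. Paired genes share matches, since the DNA between them counts for both. A match is a run of letters and not a measured binding site.

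In control testes H2A.Z peaks lay at most of the histone genes. A control boundary peak was present at 54 of the 62 members (87.1%, exact 95% interval 76.1 to 94.3%), against 67.6% of all protein-coding genes. All 5 H1 genes had one, as did 14 of 17 H2A, 15 of 16 H2B, 10 of 12 H3 and 10 of 12 H4 genes. All 30 members of the H4c8 to H2ac1 cluster had one, against 17 of 22 and 7 of 10 in the other 2 clusters. Intervals in the text are Clopper-Pearson intervals, cover counting error only, and treat genes as independent, which neighbours that share a peak are not.

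Histone genes shared their peaks. The 54 genes were served by 45 distinct control peaks, 21 of them within reach of 1 member, 21 of 2 and 3 of 3. The peaks reaching 3 members were those at H2bc13, H2ac13 and H3c10 (1699 bp), at H4c1, H3c1 and H1f1 (2180 bp), and at H2ac21, H2ac20 and H2bc21 (2390 bp). The widest member peak, 2681 bp, lay at H4c14, and that of H1f5, which encodes a linker histone, was 2227 bp. Member peaks had a median width of 867 bp (range 205 to 2681 bp), and peaks at the ends of all protein-coding genes 1331 bp.

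**Figure D1:**
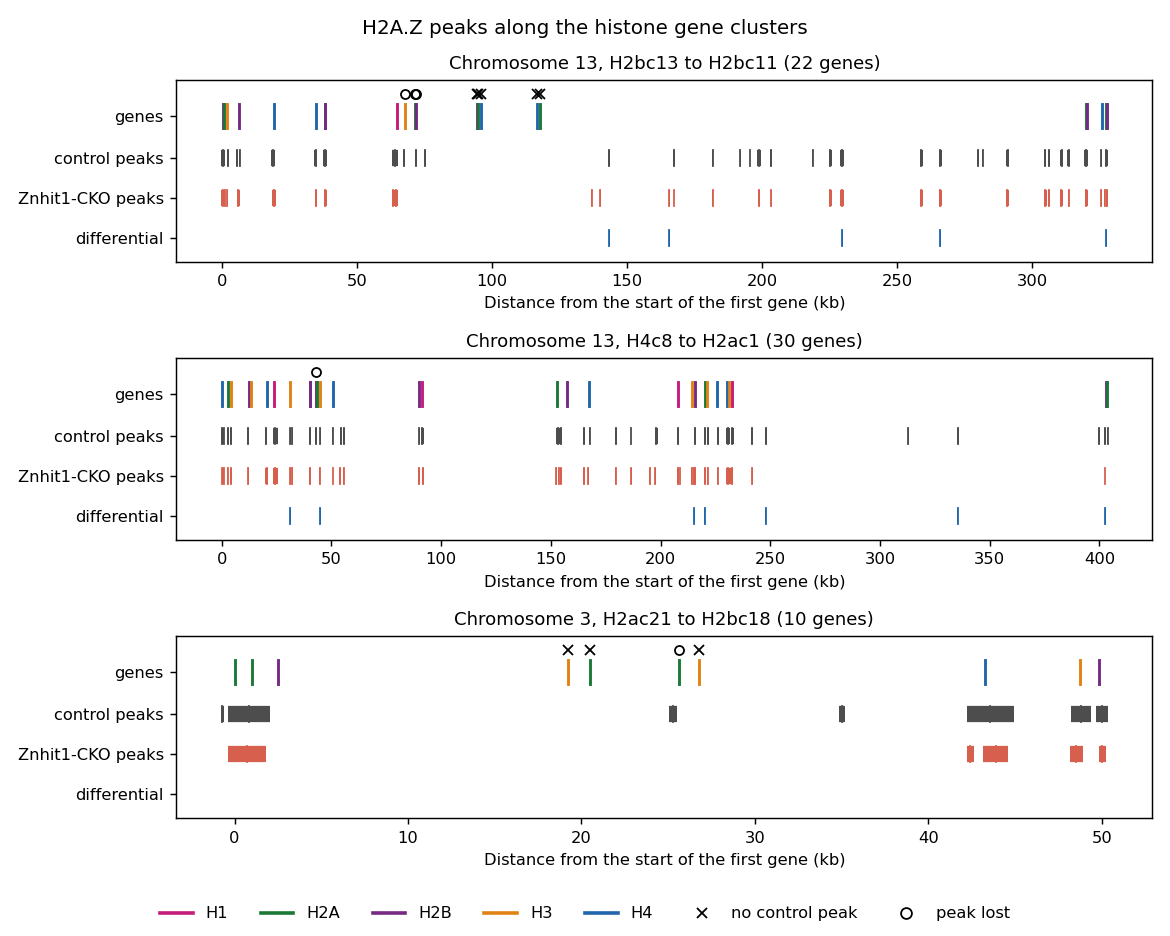
Maps of the 3 histone gene clusters, with distance in kb from the start of the first gene on the x axis. Ticks mark a start of each member, coloured by histone type (the midpoint for the 5 genes without a listed start), and blocks mark control peaks, Znhit1-CKO peaks and the authors' differential regions. Crosses mark the 8 members with no control boundary peak and circles the 5 that lost it. The crosses sit in groups, as do the circles of H3c11, H2ac22 and H2bc22, while H2bc7 and H2ac18 are the only circles in their clusters.

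The peaks sat over the start and the short body of the gene. In the 57 members with a listed start, control peaks covered the base 100 bp downstream of the start in 46 (80.7%) and that 600 bp downstream in 18 (31.6%). In the 17435 other protein-coding genes of the promoter table the same positions were covered in 62.7% and 48.0%. The start itself lay in a control peak at 44 of the 57 members (against 61.7% of all genes in the table) and in a Znhit1-CKO peak at 34 (against 51.9%). In both peak lists, then, the covered share at the start was above that of all genes, and it was lower in the Znhit1-CKO list for both.

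**Figure D2:**
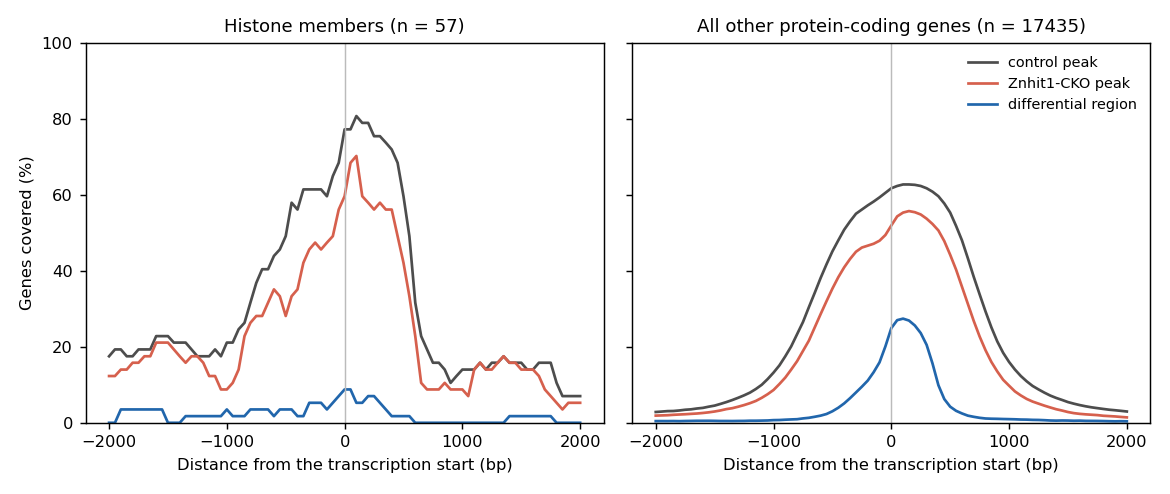
Share of genes covered by a control peak, a Znhit1-CKO peak or a differential region (y axis, percent) by distance from the transcription start (x axis, bp, positive in the direction of transcription), for 57 histone members and 17435 other genes. Control peaks covered 77.2% of member starts, and differential regions 8.77% of them against 24.9% for other genes.

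The 8 members without a control boundary peak lie in 2 places. In the first chromosome 13 cluster they are H2bc23, H2ac23, H4c17, H4c18 and H2ac24, and on chromosome 3 they are H3c15, H2ac19 and H3c14. None had a Znhit1-CKO peak or a differential region either. The nearest to passing was H3c14, whose closest control peak ended 1282 bp away. These genes lie in repeated DNA. Each of the 8 promoters shared a run of at least 219 identical bases with the promoter of another gene, up to all 300 bases for H2bc23 and H4bc24. Below are the 250 bases before the starts of H4c17 (chr13:21811496-21811745, plus strand) and H4c18 (chr13:21832198-21832447, minus strand), and of H2ac18 (chr3:96245247-96245496, plus strand) and H2ac19 (chr3:96240375-96240624, minus strand), with the longest run shared within each pair, 249 and 169 bases, in capitals.
H4c17: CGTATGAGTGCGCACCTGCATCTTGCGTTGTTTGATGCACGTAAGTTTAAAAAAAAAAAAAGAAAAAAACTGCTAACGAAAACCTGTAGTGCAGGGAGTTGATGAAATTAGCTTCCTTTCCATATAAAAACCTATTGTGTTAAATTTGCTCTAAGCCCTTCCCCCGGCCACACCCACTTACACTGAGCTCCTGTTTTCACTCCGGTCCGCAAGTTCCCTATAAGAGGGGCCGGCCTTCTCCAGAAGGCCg
H4c18: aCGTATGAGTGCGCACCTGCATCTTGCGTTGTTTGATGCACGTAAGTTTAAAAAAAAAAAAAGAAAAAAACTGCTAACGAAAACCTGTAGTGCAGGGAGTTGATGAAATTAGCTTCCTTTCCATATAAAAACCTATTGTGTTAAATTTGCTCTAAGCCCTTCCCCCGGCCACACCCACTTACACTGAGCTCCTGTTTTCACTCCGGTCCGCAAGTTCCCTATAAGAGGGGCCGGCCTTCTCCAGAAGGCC
H2ac18: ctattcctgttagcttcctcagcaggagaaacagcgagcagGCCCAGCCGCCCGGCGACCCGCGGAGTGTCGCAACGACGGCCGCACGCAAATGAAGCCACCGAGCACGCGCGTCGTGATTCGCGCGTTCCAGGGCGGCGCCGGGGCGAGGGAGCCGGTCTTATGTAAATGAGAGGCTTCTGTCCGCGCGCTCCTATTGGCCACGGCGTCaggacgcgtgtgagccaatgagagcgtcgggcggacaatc
H2ac19: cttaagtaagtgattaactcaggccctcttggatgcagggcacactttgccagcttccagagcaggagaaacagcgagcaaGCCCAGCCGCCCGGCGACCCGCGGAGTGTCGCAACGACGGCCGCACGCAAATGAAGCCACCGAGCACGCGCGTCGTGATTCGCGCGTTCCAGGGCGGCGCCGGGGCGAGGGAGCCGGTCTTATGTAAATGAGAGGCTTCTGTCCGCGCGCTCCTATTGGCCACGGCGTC
Of the 9 members whose 300-base promoter shared 100 bases or more with another, H2ac18 alone had a control boundary peak, while all 48 other members in the table had one. In the 44 members of the promoter table that had and kept a peak, the longest shared run was at most 72 bases. The same held far beyond histones: 83 of 1140 other protein-coding genes with such a shared run had a control boundary peak (7.28%), against 71.5% of the 16343 genes without one, histone members included. The treatment of reads that map to several places is unknown from the sources used here, and the part of sequence sharing in the missing peaks was not tested.

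Most histone genes still had a boundary peak in Znhit1-CKO testes. Of the 54 members with a control boundary peak, 49 had 1 in Znhit1-CKO as well and 5 did not (9.26%, 3.08 to 20.3%). Among all protein-coding genes, most of them longer than the members, 11.5% lost it, so the members' share was near that of all genes. It was not near that of other short genes. Among genes of at most 1 kb with a control boundary peak, 4 of 50 members lost it, against 63 of 107 other genes. These 107 were drawn from 1528 other genes of that length, and the 50 from 57 members. The difference was not tested. Counted at starts alone, 49 of 57 members had a control peak (67.7% of all genes in the promoter table) and 6 of these lost it (9.68% of all). The 5 of 54 were H3c11, H2ac22 and H2bc22 in the first chromosome 13 cluster, H2bc7 in the second, and H2ac18 on chromosome 3. H3c11 had a control peak of 672 bp. H2ac22 and H2bc22 shared 1 of 918 bp between their starts, and H2bc7 had 1 of 854 bp that it shared with H2ac7. That of H2ac18 was 470 bp wide. None of the 5 genes had a differential region, while 58.6% of all genes that lost the peak did. H2ac7 counted as kept only through a Znhit1-CKO peak of 319 bp at H3c4, its neighbour, and the Znhit1-CKO peak nearest to H2bc7 was 1387 bp away. Where only peaks of at least 500 bp were used in both lists, 12 of 51 members lost the peak (23.5%, against 14.5% of all genes), and where 50% of both peaks had to overlap, 15 of 54 did (27.8%, against 23.4%). Immunoprecipitation of whole testis cells cannot tell fewer cells with H2A.Z at a gene from less H2A.Z per cell.

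Counted as peaks, 38 of the 45 control peaks at members (84.4%) were overlapped by a Znhit1-CKO peak, against 82.0% of the 15147 control peaks at the ends of all protein-coding genes. The 23 member peaks of at most 903 bp were called again in 17 cases (73.9%), against 43.8% of all boundary peaks of that width. Among 30 peaks that overlapped 1 Znhit1-CKO peak and it no other, 23 (76.7%) were narrower in Znhit1-CKO. The median log2 ratio of width, Znhit1-CKO over control, was -0.23. Over 11059 such pairs at all protein-coding gene ends 83% were narrower and the median was -0.24, close to the members' values. Several Znhit1-CKO peaks lay in 1 control peak at 6 of 45 member peaks (13.3%, against 8.20% of all), and at 4 of the 7 over 1675 bp (57.1%, against 20.2% of all).

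Length in peaks was also compared. Over the DNA from 1 kb before to 1 kb after every member, merged, control peaks covered 49923 bp and Znhit1-CKO peaks 38811 bp, which is 77.7% of it. For all protein-coding genes together it was 67.0%, which is not a like measure, since each window holds the whole gene. The merged windows were 180 kb for the members and 1067719 kb for all genes, long gene bodies included. Among genes of at most 1 kb, the Znhit1-CKO share of the control length was 76.7% for members and 50.4% for other genes. Gene by gene the median was 85.0% over the 54 members and 78.4% over all genes with a control boundary peak. Under 50% of the control length was left at 10 members (18.5%, against 22.2% of all genes), and more than 100% was covered at 9 (16.7%, against 13.8%), both near the shares of all genes.

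**Figure D3:**
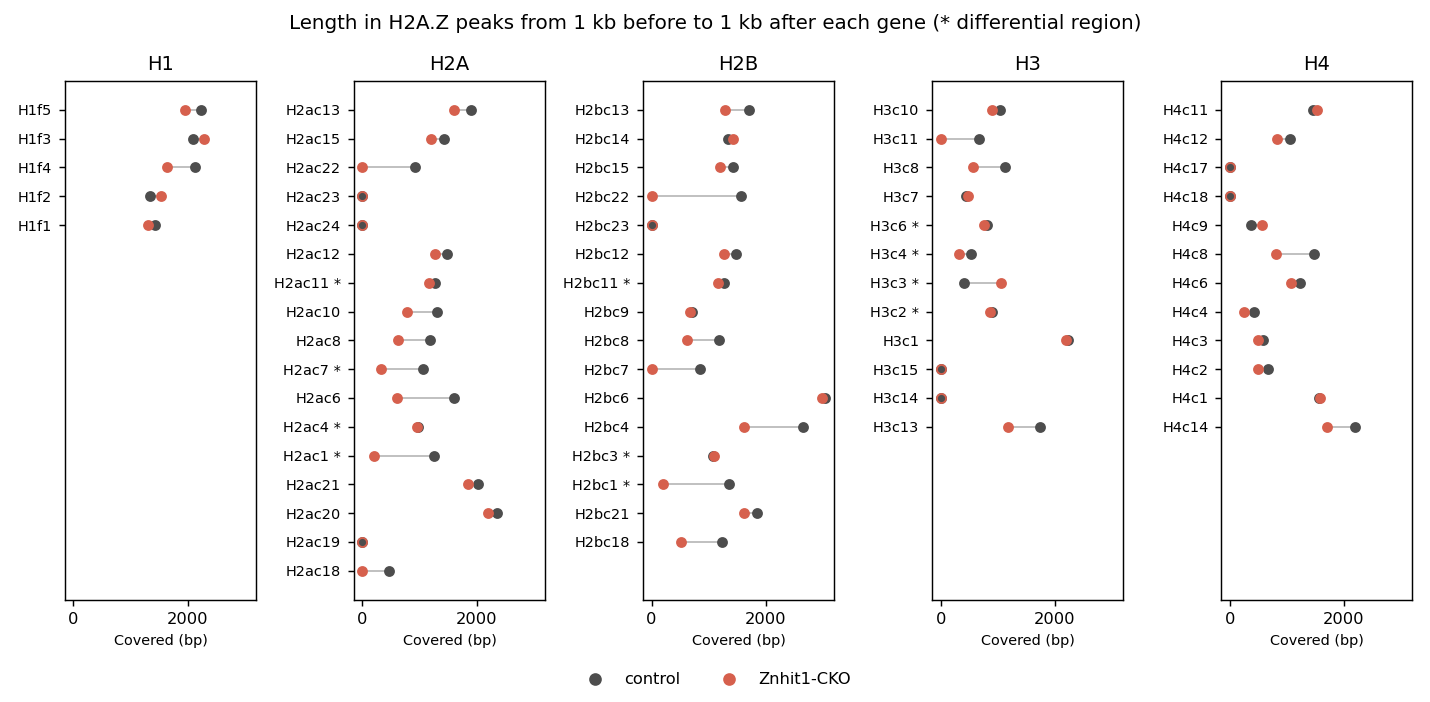
Length (bp, x axis) in control peaks (grey) and Znhit1-CKO peaks (red) from 1 kb before to 1 kb after each of the 62 members, by histone type and in order along the chromosomes. Asterisks mark the 11 members with a differential region. The H1 genes stay at 1312 bp or more in both lists, while H2A and H2B genes include the 4 that fall furthest, H2bc22, H2bc1, H2ac1 and H2bc4. H2bc22 and H2bc4 are annotated as 14079 bp and 8282 bp long, so their windows also hold peaks other than their boundary peaks.

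All 5 linker histone genes, which encode the H1 proteins that bind DNA between nucleosomes, had a boundary peak in both genotypes and no differential region. H1f1 had 1434 bp covered in control and 1312 bp in Znhit1-CKO, and H1f5 had 2227 bp and 1963 bp. H1f4 had 2133 bp and 1635 bp (76.7%), the lowest ratio of the 5 and below the median of all genes (78.4%). At H1f2 the length was 1341 bp and 1536 bp, and at H1f3 it was 2092 bp and 2279 bp, higher in Znhit1-CKO at both. Merged over the 5 genes, Znhit1-CKO peaks covered 94.6% of the control length, and the median of the 5 ratios was 91.5%. For all protein-coding genes, whose windows take in long gene bodies, the merged share was 67.0%. The promoter of H1f3 (chr13:23554782-23555031, plus strand), whose peak was the wider in Znhit1-CKO, is given with the same motifs in capitals.
H1f3: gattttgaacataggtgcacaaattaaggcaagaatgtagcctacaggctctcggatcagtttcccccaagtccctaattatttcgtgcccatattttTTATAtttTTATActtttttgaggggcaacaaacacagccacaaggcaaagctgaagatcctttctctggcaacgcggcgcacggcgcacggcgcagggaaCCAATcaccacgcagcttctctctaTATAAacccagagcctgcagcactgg

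The merged Znhit1-CKO length was 62.7% of control at H2A genes, 69.0% at H2B, 84.1% at H3 and 84.6% at H4. For all protein-coding genes, long gene bodies included, it was 67.0%. The merged H2B windows were 103 kb, through long gene models such as H2bc6, against 40.7 kb for H2A, 31.1 kb for H3 and 28.9 kb for H4. The medians over single genes were 71.8% for H2A, 84.1% for H2B, 90.1% for H3 and 82.6% for H4, against 78.4% for all genes. H2B was below H4 in the merged length and above it in the median, while H2A was the lowest of the 4 in both. No difference between types was tested. Among H2A genes H2ac6 went from 1608 bp to 597 bp and H2ac8 from 1175 bp to 625 bp, while H2ac20 had 2351 bp and 2191 bp. Among H2B genes H2bc18 went from 1236 bp to 514 bp, while H2bc14 had 1344 bp and 1420 bp. H2A and H2B values are not separate measurements where a pair shares its peak, as at H2ac8 and H2bc8 or at H2ac15 and H2bc15 (1425 bp in control and 1198 bp in Znhit1-CKO for both). Among H4 genes H4c8 went from 1472 bp to 808 bp, while H4c11 had 1465 bp and 1526 bp and H4c1 had 1562 bp and 1579 bp.
The 5 highest ratios of Znhit1-CKO to control length were at H3c3 (260%), H4c9 (154%), H1f2 (115%), H3c7 (111%) and H1f3 (109%). H3c3 had 409 bp in control, the part of a 1082 bp peak that its window reached, and 1064 bp in Znhit1-CKO. H4c9 had 367 bp and 566 bp. H3c7 had 439 bp and 487 bp, in a peak it shares with H2bc9. Control coverage was thus under 500 bp at 3 of the 5 genes, and not at the 2 H1 genes. At H3c3 and H4c3 a Znhit1-CKO peak lay over the gene where no control peak did (416 bp and 503 bp wide). At H4c3 the control peak, 575 bp wide, lay upstream of the start and was overlapped by no Znhit1-CKO peak, so H4c3 kept a boundary peak in another place.

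The authors' differential regions were rare at histone genes. Such a region lay within 1 kb of an end of 11 of the 62 members (42.6% of all protein-coding genes), all among the 54 with a control boundary peak (20.4%, 10.6 to 33.5%), where 62.8% of all such genes had one. Of the 49 members that kept a peak, 11 had a region, against 63.4% of all genes that kept one. The 11 genes were reached by only 6 regions, each 400 bp wide and each over a control peak and a Znhit1-CKO peak. They lay at H2ac11 and H2bc11, at H3c6, at H3c4 and H2ac7, at H2bc3 and H3c3, at H2ac4 and H3c2, and at H2bc1 and H2ac1. By type, 4 H2A, 3 H2B and 4 H3 genes had a region, and 0 of 5 H1 genes and 0 of 10 H4 genes with a control peak. By place, 9 of the 11 were in the H4c8 to H2ac1 cluster, and no member on chromosome 3 had one. Inside the 1 kb limit but near it were the regions at H2ac7 (828 bp from the gene end) and H3c2 (953 bp). Beyond the limit but within 2 kb were those nearest H4c9 (1535 bp) and H2bc7 (1536 bp). These last are the regions already counted at H2ac11 and H2bc11 and at H3c4 and H2ac7.

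Differential regions were the rarer at members in each of 4 groups of peak width. The groups are of nearly equal size over the 15147 control peaks at all protein-coding gene ends. A region overlapped 6 of the 45 member peaks (13.3%) and 59.6% of all 15147. Of the member peaks of at most 903 bp, 4 of 23 had one (17.4%, against 37.4%), and of those of 904 to 1331 bp, 2 of 10 (20.0%, against 62%). In the group up to 1675 bp it was 0 of 5 (against 68.6%) and above that 0 of 7 (against 70.6%). The 7 widest include those of H4c14, H1f5, H1f3 and the H2ac21, H2ac20 and H2bc21 group. The same direction was seen with a window of 500 bp (15.4% of members with a control peak, against 59.3%), with 2 kb (23.6%, against 66.1%) and with starts alone (20.4%, against 64.2%). Away from protein-coding gene ends, differential regions were rare elsewhere in the clusters too. Of the 33 control peaks inside the clusters that lay more than 1 kb from every member end, 5 were overlapped by a region (15.2%). Most of these 5 peaks lay at the ends of other protein-coding genes. Of the 33, 27 were at no protein-coding gene end, and 1 of these had a region (3.70%). Among all 33605 control peaks at no such end it was 44.0%. Some of the 27 lie inside long gene models of members, such as H2bc6 and H2bc22. A low share was thus also seen in the clusters away from annotated gene ends, though not only outside histone genes. The difference was not tested. Since the genes were chosen with results of these lists in view, none of these differences was tested.

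**Figure D4:**
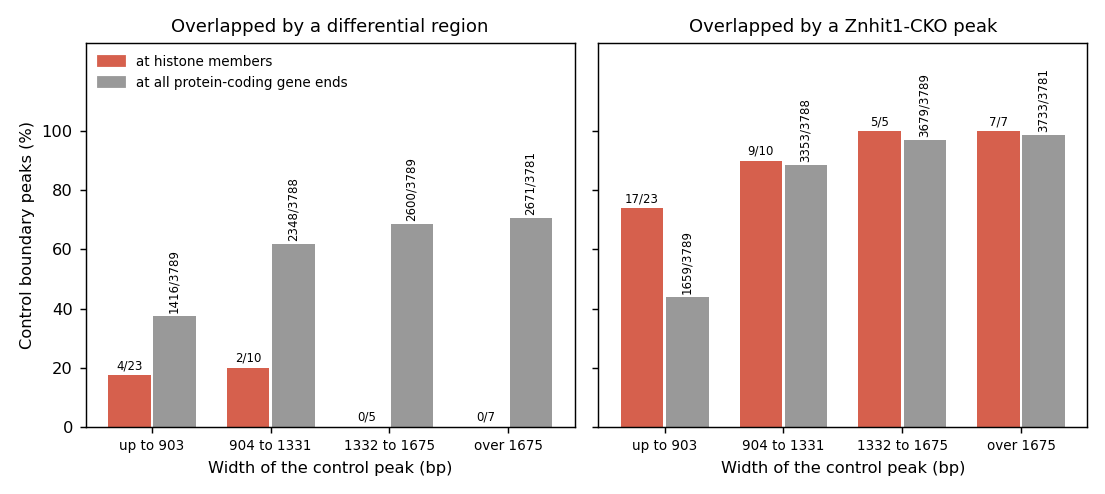
Share (percent, y axis) of control boundary peaks overlapped by a differential region (left) or by a Znhit1-CKO peak (right), by width of the control peak (bp, x axis), for the 45 peaks at members (red) and the 15147 at all protein-coding gene ends (grey). Numbers above the bars are counts. The red bars for differential regions are below the grey ones in each width group, and those for overlap by a Znhit1-CKO peak are not.

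The testis pair H2bc1 and H2ac1 stood at the low end of the members that kept a peak. Their starts lie back to back with 280 bp between them, and the pair stands apart at the end of the second chromosome 13 cluster. In control testes a peak of 867 bp (chromosome 13, 23933337 to 23934203) lay over H2bc1 and 1 of 490 bp (23934496 to 23934985) over H2ac1. In Znhit1-CKO testes 1 peak of 206 bp was left, inside the first. Covered length went from 1357 bp to 206 bp at H2bc1 (15.2%) and from 1257 bp to 206 bp at H2ac1 (16.4%). The differential region at 23933595 to 23933994 overlaps that remaining peak. H2ac1 kept a boundary peak only because this peak lies 711 bp from the gene, and with a 500 bp window H2ac1 was lost.

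Genes of histone supply had differential regions in a share near that of all genes. The list holds 41 genes of histone gene transcription, histone mRNA processing and histone chaperoning. All 41 had boundary peaks in both genotypes, and 28 had a differential region (68.3%, 51.9 to 81.9%, against 62.8% of all genes). Npat, the organiser of histone gene transcription, had 2063 bp covered in control and 2146 bp in Znhit1-CKO, with a differential region. Slbp, which binds the histone mRNA stem-loop, had 1438 bp and 1302 bp, without one. The chaperone genes Asf1a and Asf1b had 1973 bp and 1329 bp in control, and 1775 bp and 804 bp in Znhit1-CKO, both with a region. Casp8ap2, a component of the histone locus body, had 1227 bp and 984 bp without one, and Ccna2, the cyclin of S phase and G2, had 1449 bp and 955 bp with one.

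Histone genes outside the rule, most of them variant or linker genes, had a share of differential regions near that of all genes. Their list also holds H1f6, H4f16, H2bu2 and H2aw, whose older symbols are of the Hist1h to Hist4h kind. Of these, only H2bu2 had a region. Of the 18 genes in the list 15 had a control boundary peak, 2 of them lost it (13.3%), and 10 of the 15 had a differential region (66.7%, 38.4 to 88.2%). The 2 lost were H1f7, a linker histone gene of spermatids (595 bp), and H2bu2 (1213 bp), both with a region, and H1f8, H3f3b and H3f4 had no boundary peak. H1f10 had 1513 bp in control and 1441 bp in Znhit1-CKO, H1f0 had 2097 bp and 2125 bp, and Cenpa, which encodes the histone H3 of centromeres, had 1854 bp and 1673 bp, each with a region. H1f6, the testis linker histone gene inside the second chromosome 13 cluster, had 1030 bp and 746 bp and no region. Genes with an older Hist1h to Hist4h symbol that the rule leaves out were H1f6, H4f16, H2bu2, H2aw and H4bc24. With them, 58 of 67 genes had a control boundary peak, 6 lost it and 12 had a differential region.

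Among the 9 non-histone protein-coding genes inside the clusters, 5 had a control boundary peak. Trim38 and Slc17a1 lost it, and Zfp184, Pom121l2 and Trim38 had a differential region (3 of 5, exact 95% interval 14.7 to 94.7%). These few neighbours give a wide interval.

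**Figure D5:**
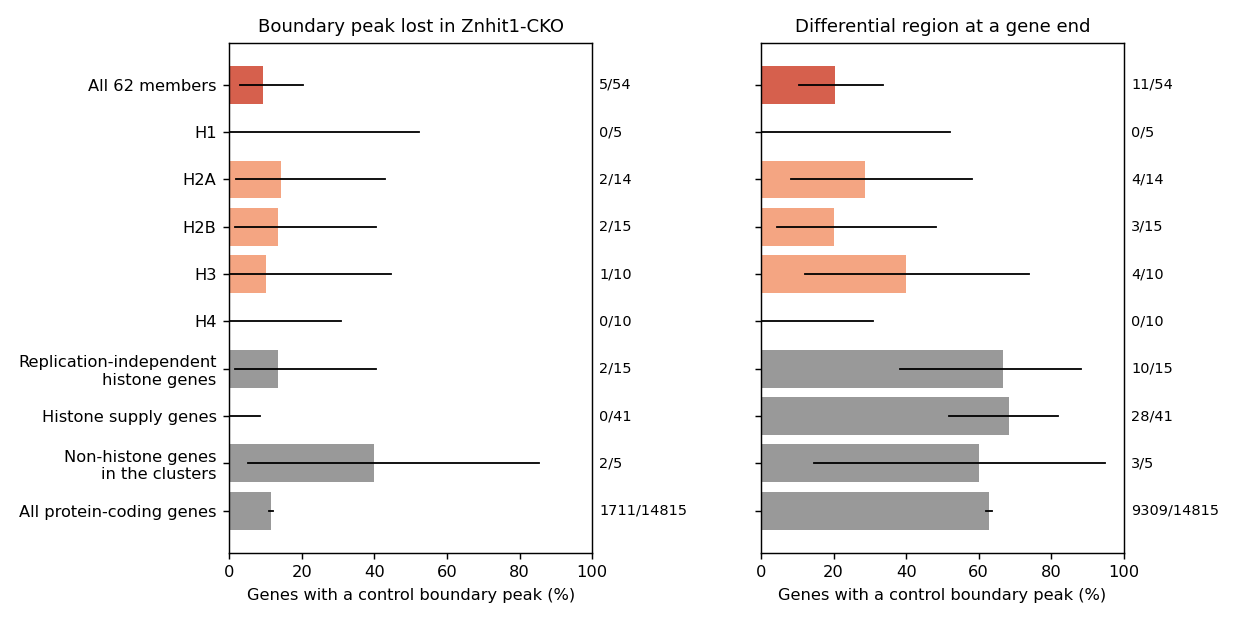
Share of genes (percent, x axis) that lost the control boundary peak (left) or had a differential region at a gene end (right), of genes with a control boundary peak, with exact 95% intervals and counts at the right. For loss the members (5 of 54) lie near all protein-coding genes (1711 of 14815), and for differential regions (11 of 54) below them (9309 of 14815).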

How the data were processed

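H2A.Z immunoprecipitates and inputs of control and Znhit1-CKO testes were sequenced in 8 libraries, 2 per group. The submitters' processing notes name mm10, MACS2 2.2.4, Picard 2.20.7, BWA 0.7.17, cutadapt 2.5 and SAMtools 1.9, without their order or settings. The authors deposited 3 lists of intervals with no score, fold or p, so no peak strength, depth, filter or replicate value could be used. Peak thresholds, pooling of replicates, the differential threshold and the treatment of reads with several matches are unknown from the sources used here.

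Gene positions were those of RefSeq (GRCm38.p6), starts and strands from its promoter table (250 bases before and 50 after each start; 17492 of 21900 protein-coding genes, 57 of 62 members). A peak or region counted for a gene where it lay within 1 kb of either end. Lost means a control peak and no Znhit1-CKO peak there. Peaks were matched by an overlap of 1 bp. Shared promoter runs were searched on both strands, leaving out overlapping promoters. Long gene models (such as H2bc6) were used as annotated.

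The members and lists were chosen with earlier results of these data known, so values are described beside those of all protein-coding genes and not tested. Genes were named by rule: members that lost or lacked a peak, the 5 highest and 5 lowest ratios of covered length, the 5 widest peaks, the H1 genes, the testis pair, and in each list the lost or lacking ones and up to 4 more by symbol. Others, such as Npat, Slbp, H2ac6, H2ac8, H2bc18, H4c8 and the neighbours in the clusters, were chosen after their values were seen, as was the comparison of cluster peaks away from member ends. Overlaps were checked on 1000 simulated queries and against bedtools 2.31.1 for 48752 control peaks, with 0 differences. Software was matplotlib 3.10.9, scipy 1.17.1, pandas 2.3.3, numpy 2.4.6 and Python 3.11.15.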

Additional observations from a re-analysis of the deposited data

How the results depend on the processing

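Windows of 500 bp and 2 kb, starts alone, peaks of at least 500 bp, 2 stricter meanings of a lost peak and the largest cluster left out were tried. The wider symbol rule, the members of at most 1 kb, the members without shared promoter runs, and the alternatives for single types and the other lists were chosen after seeing the data; each changes 1 choice. No paired analysis was possible because every genotype has a single list without replicate values. For that reason no replicate could be left out. The count of 5 lost members became 12 with peaks of at least 500 bp and 15 where 50% of both peaks had to overlap, and was 4 to 7 otherwise. By construction the first setting leaves out narrow Znhit1-CKO peaks. The second leaves out those much narrower or much wider than the control peak, such as the 1420 bp peak at H2bc14 over control peaks of 756 bp and 588 bp. The Znhit1-CKO share of the control covered length (77.7%) was 76.1% with 500 bp, 77.5% with 2 kb, 67.7% with peaks of at least 500 bp, 75.2% without the largest cluster and 76.7% for members of at most 1 kb. Of 36 alternatives to the main counts and lengths, 34 stayed within 1.5 times, all but these counts of 12 and 15, among them members with a control peak (49 to 58) and with a differential region (8 to 13). Of 56 for single types and lists, 9 moved further, all from counts of 4 or fewer. Depth is unknown, so narrow peaks near the calling threshold are the least certain.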

Other observations

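Control peaks in the clusters were not confined to the ends of members. Of 77 control peaks inside the 3 clusters, 33 lay more than 1 kb from every member end, with a median width of 850 bp. They include the peak at H1f6, a histone gene outside the rule, and peaks inside long gene models of members such as H2bc6. A Znhit1-CKO peak overlapped 21 of the 33 (63.6%). Of the 27 at no protein-coding gene end 17 were overlapped (63.0%), against 34.5% of all control peaks at no such end, whose median width was 595 bp against 722 bp. Of the 12 differential regions inside the clusters, 6 were at members.

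At 3 Znhit1-CKO peaks within reach of a member no control peak was overlapped: 503 bp at H4c3, 416 bp at H3c3 and 196 bp beyond the end of H1f2. No member had a Znhit1-CKO boundary peak without also having a control one.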
